A study of Mus musculus with 12 samples.

Results

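Gata1, 4 genes of its transcriptional network (Zfpm1, Klf1, Tal1 and Lmo2), the adult alpha-globin genes Hba-a1 and Hba-a2, the adult beta-globin genes Hbb-bs and Hbb-bt, and the erythroid heme synthesis gene Alas2 were followed in regulatory T cells (Tregs). These 10 genes are 10 of the 55228 gene symbols in the expression table and were picked by symbol. They were chosen from measured values of these same libraries, among them the high alpha-globin level in 1 of the groups, so their own levels and fold changes are given as a description and carry no p-value.

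The cells were Tregs from the lymph nodes of 16 NOD.Foxp3-GFP mice, a diabetes-prone strain whose Foxp3-expressing cells carry GFP. The nodes were pooled and the CD4+ cells were divided in 3 before sorting for GFP and CD25, so the 3 replicates of each group are separate sorts and cultures of 1 pool and not separate animals, and p-values measure only the spread between such cultures. On day 2 of activation each culture was divided among retroviral constructs, all of which also carry the surface marker Thy1.1, and on day 9 the Thy1.1+ cells were sorted for bulk RNA-seq. The group called EV alone received the empty vector (EV) and was washed free of IL-2 on day 4. The group called EV with IL-2 received the same vector and stayed in medium with soluble IL-2. The 1G12t and 3A10t groups received a tether, a variant of orthogonal IL-2 (1G12 or 3A10) joined to the orthogonal IL-2 receptor beta chain by a linker derived from CD25, and were washed on day 4 like the EV alone cells. Each of the 4 groups had 3 libraries.

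GATA1 is the zinc-finger transcription factor that drives red cell, megakaryocyte, mast cell and eosinophil development. In red cell precursors it works with FOG1 (the product of Zfpm1) and in a complex with TAL1, an E protein, LMO2 and LDB1, and together with KLF1 it switches on the globin genes and Alas2, the first enzyme of erythroid heme synthesis. T cells are better known for the related factor GATA3.

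Gata1 mRNA was present in the sorted Treg populations of every group, with mean levels of 55 to 156 TPM (a length-corrected share of all transcripts). It was highest in cells kept in IL-2. The alpha-globin mRNAs, by contrast, were each at 2.31 or below on the same scale in every library outside EV with IL-2, where their sum was 25.8-fold that of the EV alone cells. Among the beta-globin genes only Hbb-bt was higher in the EV with IL-2 libraries without overlap, at a much lower level. The division of reads between the beta-globin pair is uncertain, and their sum in 3A10t replicate 2 reached the EV with IL-2 range. Tal1, Klf1 and Alas2, which red cell precursors use beside Gata1, stayed at about 1 TPM or less in each of the 12 libraries.

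The proximal promoters of Gata1, Hba-a1, Hbb-bs, Hbb-bt and Alas2 are shown because their genes belong to 1 regulatory network but moved differently. Each window runs from 250 bases before to 50 bases after the RefSeq start (assembly GRCm38.p6), is printed 5′ to 3′ on the gene's strand, and has in capitals the GATA motifs (AGATAA, the A form, or TGATAA, the T form) and the KLF-type boxes (CACCC) found on either strand. The windows are chrX:7967861-7968160 on the minus strand for Gata1, chr11:32283422-32283721 on the plus strand for Hba-a1, chr7:103827879-103828178 on the minus strand for Hbb-bs, chr7:103813874-103814173 on the minus strand for Hbb-bt and chrX:150547167-150547466 on the plus strand for Alas2.
Gata1: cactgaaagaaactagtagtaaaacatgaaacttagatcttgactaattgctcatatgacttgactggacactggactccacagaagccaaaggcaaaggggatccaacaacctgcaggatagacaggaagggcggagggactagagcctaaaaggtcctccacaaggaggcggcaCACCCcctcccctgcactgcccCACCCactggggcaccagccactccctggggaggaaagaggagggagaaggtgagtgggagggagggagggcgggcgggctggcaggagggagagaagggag
Hba-a1: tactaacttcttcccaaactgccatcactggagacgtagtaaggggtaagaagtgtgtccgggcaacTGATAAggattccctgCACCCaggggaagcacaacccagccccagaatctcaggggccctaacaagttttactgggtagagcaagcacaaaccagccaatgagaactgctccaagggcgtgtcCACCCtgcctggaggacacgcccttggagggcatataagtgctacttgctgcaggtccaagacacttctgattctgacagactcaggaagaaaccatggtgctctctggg
Hbb-bs: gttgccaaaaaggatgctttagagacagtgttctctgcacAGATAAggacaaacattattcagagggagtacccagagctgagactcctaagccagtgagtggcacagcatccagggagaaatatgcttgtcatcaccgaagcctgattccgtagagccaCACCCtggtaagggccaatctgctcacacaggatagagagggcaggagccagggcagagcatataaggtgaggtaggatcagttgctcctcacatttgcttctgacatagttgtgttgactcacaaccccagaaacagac
Hbb-bt: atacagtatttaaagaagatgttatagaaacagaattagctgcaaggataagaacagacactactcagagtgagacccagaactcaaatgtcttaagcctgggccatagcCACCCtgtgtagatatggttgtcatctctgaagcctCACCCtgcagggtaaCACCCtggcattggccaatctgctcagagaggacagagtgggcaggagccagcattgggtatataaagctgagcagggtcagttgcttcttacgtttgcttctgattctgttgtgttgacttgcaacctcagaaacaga
Alas2: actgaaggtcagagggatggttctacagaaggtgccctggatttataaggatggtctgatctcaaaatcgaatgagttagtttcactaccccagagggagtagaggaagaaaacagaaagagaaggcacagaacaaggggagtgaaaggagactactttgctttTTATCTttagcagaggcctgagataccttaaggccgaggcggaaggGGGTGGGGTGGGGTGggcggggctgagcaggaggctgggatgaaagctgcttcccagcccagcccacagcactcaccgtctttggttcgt

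The Hba-a1 window held 1 GATA motif of the T form, 2 KLF-type boxes, 1 E box (CANNTG, the motif of TAL1 and E proteins) and 1 NF-Y box (CCAAT). The Hba-a2 window was identical to it over all 297 bases that could be aligned. The Hbb-bs window held 1 GATA motif of the A form and 1 KLF-type box, whereas the Hbb-bt window held no GATA motif, 3 KLF-type boxes and 1 TATA box (TATAAA). Each held 2 E boxes, with 1 NF-Y box in Hbb-bs and 3 in Hbb-bt. Only the letters TATAAA were counted as a TATA box, so the catataag in the Hbb-bs and Hba-a1 windows was not. These beta-globin windows matched at 168 of 299 aligned bases. The Alas2 window held 1 GATA motif of the A form and 3 KLF-type boxes, with no E box. Its 1 match to TATAAA began at -209 from the start and was on the opposite strand. The match in Hbb-bt began at -28 and was on the gene's strand. No GATA motif was found in this Gata1 window, which held 2 KLF-type boxes and 1 E box. Its start, 7967910, is that of an annotated transcript but lies inside the gene. Gata1 has 3 annotated transcripts and its outermost start on this strand is at 7978071. Which start the cells used was not tested. The motif TTCNNNGAA, bound by the STAT factors that act downstream of the IL-2 receptor, was in none of the 10 windows of the 9 genes in the promoter table (Tal1 had 2 windows, and Lmo2 was not in the table). Of all 32851 windows in the table, 11.2% held the A form of the GATA motif, 9.05% the T form, 57.5% a KLF-type box, 72.3% an E box, 37.4% an NF-Y box, 13.6% a TATA box and 8.3% the STAT motif, so that a KLF-type box or an E box says little of a window. Motifs were counted on both strands and at any position in the window, and E boxes could overlap other motifs. A match describes the letters of the window and is not evidence that a factor binds.

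**Figure D1:**
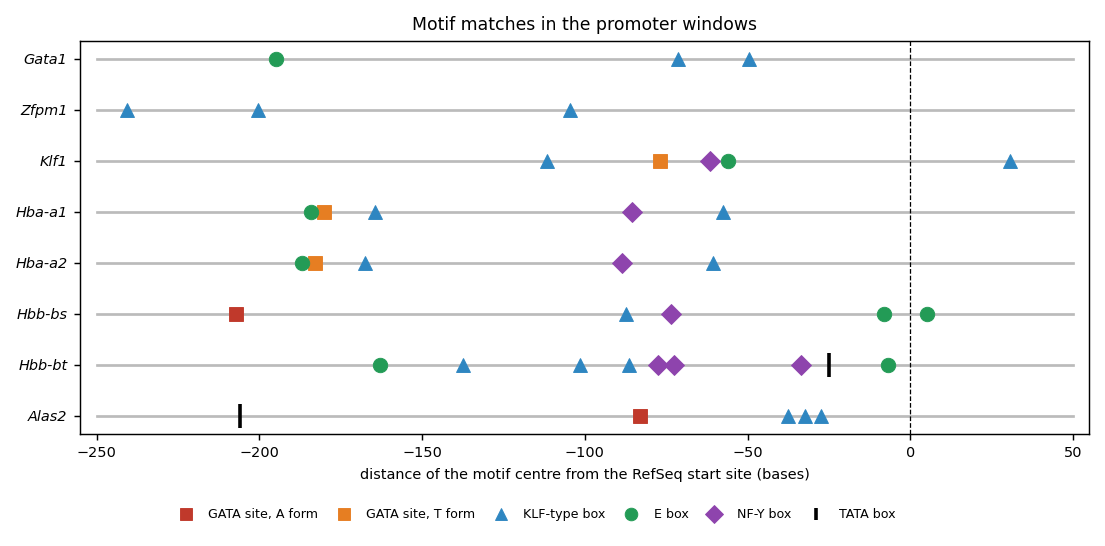
Motif matches in the promoter windows of 8 of the genes, plotted by distance in bases from the RefSeq start site (dashed line), with the grey bar spanning the window. The alpha-globin windows share a GATA site, an E box, 2 KLF-type boxes and an NF-Y box, while the Gata1 and Zfpm1 windows hold no GATA site.

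Levels are given as scaled TPM, TPM made comparable between libraries by a scaling factor and already corrected for transcript length, so they can be compared between genes. Fold changes are differences of log2(scaled TPM + 1), with standard errors (SE) from a limma fit, and they understate the change of genes near or below 1 TPM. Depth cannot be read from TPM. Genes averaging 1 TPM or more were tested, which kept 15043 and 5 of the 10 followed here (Gata1, Zfpm1, Lmo2, Hba-a1 and Hba-a2). Hba-a1 and Hba-a2 reached that mean only through the EV with IL-2 libraries.

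The libraries differed at the low end. The table listed 30393 to 36239 genes above 0 in the EV with IL-2 libraries against 37930 to 43285 in the other groups. Of 27050 genes with a mean TPM between 0.1 and 1, 39.9% were lower in all 3 EV with IL-2 libraries than in any EV alone library and 1.02% were higher in all 3. A low level in EV with IL-2 is therefore shared with many genes of that range, and its part in the values of Tal1, Klf1, Alas2 and the marker genes below was not tested. Foxp3, the factor that defines Tregs, was at 494 ± 5.97 in EV alone and 502 ± 6.83 in EV with IL-2 (SD, n = 3). It was at 495 ± 9.99 in 1G12t and 408 ± 49.2 in 3A10t, whose libraries (463, 369 and 391) lay below all others. Levels of 6 Treg genes (Cd4, Cd3e, Foxp3, Il2ra, Ctla4 and Ikzf2) were also summed. The sum was 1840 to 1940 in EV alone and 2220 to 2240 in EV with IL-2. In 1G12t it was 1910 to 1980 and in 3A10t 1600 to 1930. Il2ra alone was at 412 in EV alone and 700 in EV with IL-2.

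Gata1 (ENSMUSG00000031162.14) lies on the X chromosome at chrX:7959260-7978071 on the minus strand of GRCm38. Its scaled TPM was 66.9, 68.4 and 52.6 in the EV alone libraries, 161, 165 and 143 in EV with IL-2, 67.8, 57.4 and 39.9 in 1G12t, and 75.5, 86.4 and 89.9 in 3A10t. All EV with IL-2 libraries lay above all others, and all 3A10t libraries lay above those of EV alone and 1G12t, which overlapped. The group means were 156 ± 12 in EV with IL-2, 83.9 ± 7.53 in 3A10t, 62.6 ± 8.71 in EV alone and 55 ± 14.1 in 1G12t (SD, n = 3). Relative to EV alone, Gata1 was higher in EV with IL-2 (log2 fold change 1.31, SE 0.175) and in 3A10t (log2 fold change 0.42, a ratio of means of 1.34), while the value for 1G12t was -0.21. 3A10t was 0.89 lower than EV with IL-2 and 0.63 higher than 1G12t on the log2 scale. The value for 1G12t against EV alone was 0.0043 without 1G12t replicate 3, the lowest Gata1 library.

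In EV alone cells, 2984 tested genes were at or above the mean level of Gata1, itself included, and in EV with IL-2 cells 1190 were. Gata3, the T cell family member, was at 133 in EV alone, 147 in EV with IL-2, 152 in 1G12t and 151 in 3A10t, and its log2 fold change with IL-2 was 0.14 (limma, Benjamini-Hochberg adjusted p = 0.512). Gata2, the factor that precedes GATA1 in blood progenitors, was at 0.751 in EV alone and 0.0801 in EV with IL-2, below the level at which genes were tested. Gata1 mRNA was thus at a level comparable with that of Gata3 in the EV with IL-2 libraries and below it in the other groups.

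The alpha-globin genes lie side by side on chromosome 11 of GRCm38, Hba-a1 (ENSMUSG00000069919.7) at chr11:32283511-32284465 and Hba-a2 (ENSMUSG00000069917.7) at chr11:32296489-32297298, both on the plus strand. Hba-a1 was at 23.8, 16.7 and 14.2 scaled TPM in EV with IL-2 and at 0.904, 0.439 and 0.641 in EV alone. Hba-a2 was at 12.7, 15.5 and 8.83 in EV with IL-2 and at 0.442, 0.848 and 0.279 in EV alone. Every EV with IL-2 library was above all 9 other libraries for both genes, the highest of which was 2.31 for Hba-a1 and 0.848 for Hba-a2.

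Of the 50-base windows in the longest transcript of each gene, 67.5% of those of Hba-a1 and 86.9% of those of Hba-a2 occur in the other gene, and reads were 50 bases long, so the division between the pair is uncertain and their sum is the safer measure. The sum was 36.5, 32.3 and 23 in EV with IL-2, 1.35, 1.29 and 0.92 in EV alone, 1.42, 0.753 and 1.36 in 1G12t, and 1.12, 1.22 and 2.61 in 3A10t. The mean was 30.6 ± 6.93 (SD, n = 3) in EV with IL-2 and 1.65 in 3A10t. The 3A10t libraries, in which Gata1 was 1.34-fold that of EV alone, overlapped EV alone in the alpha-globin sum. Taken singly, Hba-a1 did not overlap between 3A10t (1.12, 0.995 and 2.31) and EV alone, with a log2 fold change of 0.55 (SE 0.252), whereas Hba-a2 was listed at 0 in 1 of the 3A10t libraries and overlapped. With IL-2, the log2 fold change was 3.51 (SE 0.252) for Hba-a1 and 3.12 (SE 0.248) for Hba-a2. These sizes depend on the pseudocount, and for Hba-a1 they ran from 2.02 with a pseudocount of 5 to 4.60 with one of 0.1.

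The adult beta-globin genes are neighbours on chromosome 7 of GRCm38, Hbb-bs (ENSMUSG00000052305.6) at chr7:103826534-103828096 and Hbb-bt (ENSMUSG00000073940.3) at chr7:103812524-103813996, both on the minus strand. Hbb-bt was at 1.94, 1.62 and 1.21 in EV with IL-2, against 0.285, 0.185 and 0.418 in EV alone, and was at most 0.418 outside EV with IL-2. The ratio of means was 5.37 (log2 fold change 0.99, SE 0.182). Hbb-bs was at 0, 0.337 and 0.128 in EV with IL-2 and 0.0688, 0.409 and 0.112 in EV alone, which overlapped, and its highest value was 1.42 in 1 of the 3A10t libraries. The beta-globin pair shares 65.8% of the windows of Hbb-bs and 58.3% of those of Hbb-bt, so the division between them is uncertain too. Their sum was 1.94, 1.95 and 1.34 in EV with IL-2 and 0.354, 0.594 and 0.53 in EV alone. In 3A10t it was 0.649, 1.80 and 0.52, so that 1 library reached the EV with IL-2 range. Alpha-globin exceeded beta-globin in 11 of the 12 libraries, the exception being 3A10t replicate 2 (1.22 against 1.80). The ratio of mean sums was 17.5 in EV with IL-2, 2.40 in EV alone, 2.08 in 1G12t and 1.66 in 3A10t, and the 3A10t value was 3.19 without replicate 2 and 0.952 without replicate 3, a check added after the data were seen. Red cell precursors make the protein chains in balance, whereas these are mRNA ratios with a beta-globin sum of at most 1.95. What set the ratios was not tested.

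**Figure D2:**
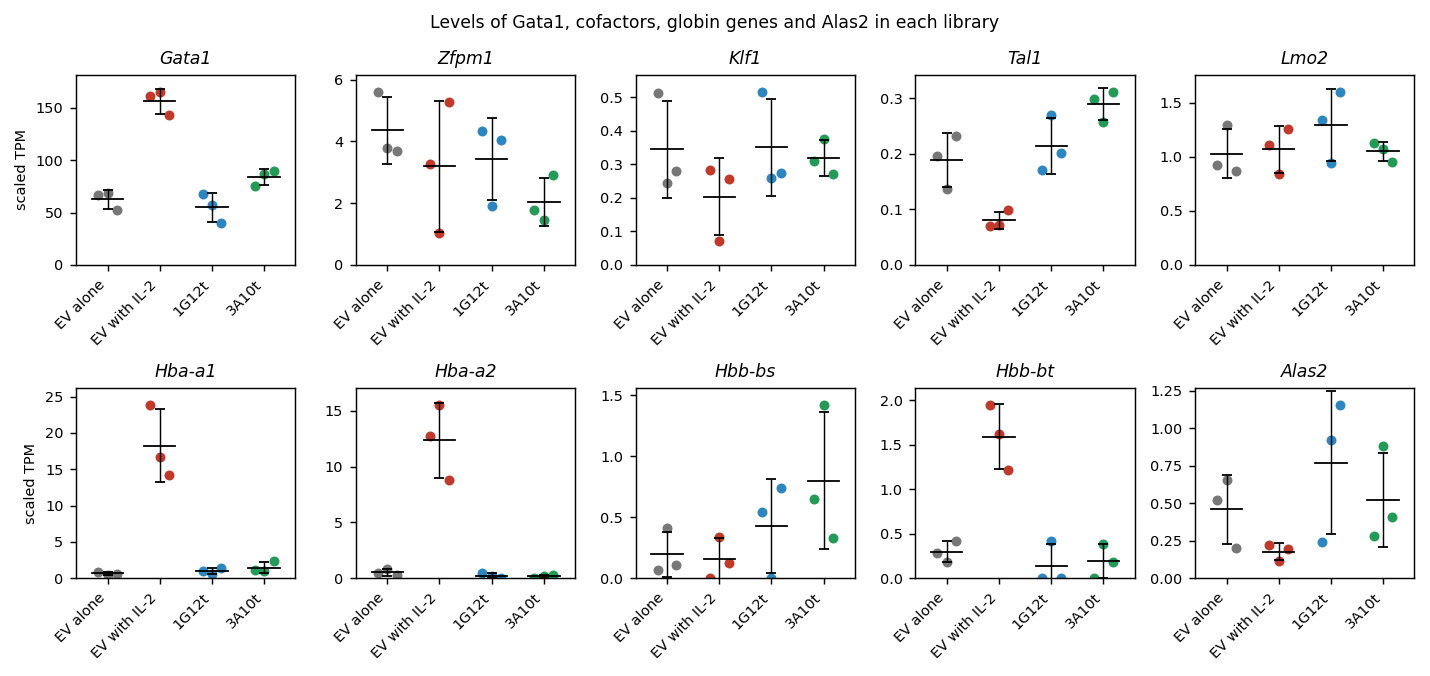
Scaled TPM (vertical axes, from 0, a separate scale for each gene) of the 10 genes in the 12 libraries by group, with 1 point per library, a bar at the mean and error bars of 1 SD (n = 3). Gata1, Hba-a1, Hba-a2 and Hbb-bt are higher in all EV with IL-2 libraries than in any other library, and Gata1 in 3A10t lies above EV alone and 1G12t.

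Zfpm1 (ENSMUSG00000049577.15, chr8:122282141-122337251), which encodes the GATA cofactor FOG1, was at 5.60, 3.77 and 3.70 in EV alone, 3.25, 1.02 and 5.29 in EV with IL-2, 4.35, 1.90 and 4.05 in 1G12t, and 1.77, 1.45 and 2.91 in 3A10t. The 3A10t libraries lay below those of EV alone (log2 fold change -0.83, SE 0.386), and the EV with IL-2 libraries spread over the range of the other groups. Replicate 2, paired across groups by a shared culture, was lowest in EV with IL-2, 1G12t and 3A10t, and replicate 3 in EV alone. The gene Gm20388 overlaps Zfpm1 on the same strand, so reads from either may have been assigned to the other. Lmo2 (ENSMUSG00000032698.15, chr2:103957986-103981878), which encodes the bridging protein of the TAL1 complex, had group means from 1.03 in EV alone to 1.29 in 1G12t with overlap between all groups. Its log2 fold change with IL-2 was 0.03 (SE 0.188). The gene 4931422A03Rik overlaps Lmo2 on the opposite strand, and the libraries kept no strand information.

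Tal1 (ENSMUSG00000028717.12, chr4:115056426-115071755), which encodes the basic helix-loop-helix factor of that complex, was at 0.0705, 0.0715 and 0.0984 in EV with IL-2, 0.197, 0.136 and 0.232 in EV alone, 0.172, 0.27 and 0.201 in 1G12t, and 0.299, 0.258 and 0.312 in 3A10t. The EV with IL-2 libraries lay below all others and the 3A10t libraries above those of EV alone, and both directions reversed under quantile normalization. Klf1 (ENSMUSG00000054191.8, chr8:84901928-84905291), the erythroid Krüppel-like factor, was between 0.0715 and 0.516 over the 12 libraries, with overlap between all groups. Alas2 (ENSMUSG00000025270.13, chrX:150547375-150570638) was at 0.222, 0.112 and 0.197 in EV with IL-2 and 0.521, 0.653 and 0.204 in EV alone, which overlapped, and at up to 1.15 in 1G12t. Apex2 and Mir3620 overlap Alas2 on the opposite strand.

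Read by order of the group means, EV with IL-2 was the highest group for Gata1, Hba-a1, Hba-a2 and Hbb-bt and the lowest for Klf1, Tal1, Hbb-bs and Alas2. Of the neighbours in these orders, EV with IL-2 and 3A10t did not overlap for Gata1, and neither did 3A10t and EV alone. EV with IL-2 and the group next below it did not overlap for Hba-a1, Hba-a2 and Hbb-bt, and EV alone and EV with IL-2, the lowest pair, did not overlap for Tal1. All other neighbours overlapped.

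Of the 5 tested genes, 3 were higher in EV with IL-2 than in EV alone without overlap, where 39.6% of all tested genes did not overlap in either direction. Nothing is read from this count or from those that follow, since the genes were chosen on values of these libraries. Hba-a1 and Hba-a2 were also tested only through their level in EV with IL-2. In 3A10t against EV alone, 2 were higher and 1 lower without overlap, beside 25.4% of all tested genes. In 1G12t against EV alone all 10 genes overlapped, beside 16.5% of tested genes that did not. The 3 comparisons use the same EV alone libraries.

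Neighbouring genes were read for EV with IL-2 against EV alone first. Of the 5 tested protein-coding genes within 100 kb of the alpha-globin genes, 0 were called in EV with IL-2 against EV alone (limma, adjusted p under 0.05) and 1 had an unadjusted p under 0.05. Over all tested genes 13.3% were called in this comparison, and nothing is read from neighbour counts this small. Nprl3, whose introns hold the alpha-globin enhancers, was at 43.3 in EV with IL-2 and 41.3 in EV alone (log2 fold change 0.06, SE 0.0835, adjusted p = 0.714). The embryonic gene Hba-x was at 0.112 and 0.340 and the theta-globin gene Hbq1b at 0.0745 and 0.375, so that neither was higher on average in EV with IL-2. Around the beta-globin genes no neighbour was expressed at a level that could be tested. Of the 7 tested neighbours of Gata1, 0 were called by limma and 1 had an unadjusted p under 0.05. Hdac6, the nearest, was at 23.7 in EV with IL-2 and 15.4 in EV alone (log2 fold change 0.59, SE 0.211, adjusted p = 0.0973). In 3A10t against EV with IL-2, 3 of these 7 were called, beside 23.4% of all tested genes. Hdac6 (log2 fold change -1.18, limma adjusted p = 0.00321) and Suv39h1 (-0.53, adjusted p = 0.0337) were lower and Pqbp1 (0.41, adjusted p = 0.0239) higher. Other loci did hold calls in EV with IL-2 against EV alone. Of the 13 tested neighbours of Klf1, 3 were called higher and 1 lower, and of the 3 of Tal1, 1 higher and 1 lower. Zfpm1, Lmo2 and Alas2 had 4, 2 and 3 tested neighbours, with 0 called.

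Genes that act with or around Gata1 were followed in 5 lists: its partners and relatives, erythroid membrane and maturation genes, other globin genes, heme synthesis and handling, and regulators of Gata1 or of globin genes. Of 114 such genes in the table, 66 were tested. In EV with IL-2 against EV alone, 7 of them were called, 1 higher and 6 lower, which is 10.6% against 13.3% of all tested genes. Their median log2 fold change was -0.06, beside -0.01 over all genes.

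Of the 25 erythroid membrane and maturation genes with a row, 5 were expressed enough to be tested, and 4 of these fell in EV with IL-2 with 0 higher, with a median log2 fold change of -0.68 over the 5. Hemgn, a nuclear protein gene of blood progenitors on the same list, was too low to be tested and was higher on average in EV with IL-2 (1.97 against 0.168). Car2, the carbonic anhydrase of red cells, fell from 3.44 to 0.847 (log2 fold change -1.27, SE 0.142, limma adjusted p = 0.00017). Epor, the erythropoietin receptor, fell from 1.72 to 0.547 (-0.80, SE 0.217, adjusted p = 0.0333), a call that was lost in 10 of 15 alternatives, the replicate block among them, with adjusted p from 0.00905 to 0.149. Epb41, the membrane skeleton protein 4.1, fell from 35.7 to 21.8 (-0.68, SE 0.121, adjusted p = 0.00374). Bpgm, which makes the 2,3-bisphosphoglycerate that lowers the oxygen affinity of hemoglobin, fell from 38.6 to 27.4 (-0.48, SE 0.109, adjusted p = 0.0142). Gypc, glycophorin C, was the remaining tested gene, at 26.3 and 25.7. Car2 and Epor were below 1 TPM in EV with IL-2, where low genes were lower in general, and the part of that in their fall was not tested.

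Heme synthesis and handling genes were expressed throughout, and 0 of 20 tested were called in EV with IL-2 against EV alone by limma, with 3 at an unadjusted p under 0.05 and a list median of 0.02. Alas1, the housekeeping counterpart of Alas2, was at 51.6 ± 1.87 in EV alone and 63.4 ± 3.54 in EV with IL-2 (SD, n = 3), against 0.459 and 0.177 for Alas2. Urod was at 114 and 117, Fech, which inserts iron into the heme ring, at 69.2 and 56.1, and Hmox2, which breaks heme down, at 103 and 113. The Tregs therefore held the mRNAs of the general heme pathway, at levels that did not pass the test between these groups.

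Among the partners and relatives of Gata1, 1 of 19 tested was called with IL-2. Lmo4, a LIM-only protein related to LMO2 that also binds LDB1, fell from 35.9 to 21.3 (log2 fold change -0.72, SE 0.142, adjusted p = 0.00662). The other parts of the complex were present: Ldb1 was at 207 in EV alone and 177 in EV with IL-2, and the E protein gene Tcf3 at 67.5 and 65.2. Among 21 tested regulators, Myb, the progenitor factor, rose from 2.31 to 4.14 (0.64, SE 0.171, adjusted p = 0.0314), a call kept in 6 of 15 alternatives with adjusted p from 0.0219 to 0.11. Hic2, a repressor of Bcl11a in red cell precursors, fell from 1.70 to 0.840 (-0.55, SE 0.156, adjusted p = 0.0407), likewise kept in 6 of 15, with adjusted p from 0.00686 to 0.191 and lost under the replicate block. Of the other globin genes only Cygb, cytoglobin, was tested, at 1.62 in EV alone and 2.22 in EV with IL-2, and it was not called.

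The call count of this comparison moves with single libraries. It was 4 without replicate 1 of EV alone, 4 without either replicate 1 or replicate 2 of EV with IL-2, and 3 without its replicate 3. The calls of Lmo4 and Epb41 held under all 15 alternatives, and that of Car2 under 14, the exception being a filter that leaves it untested.

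**Figure D3:**
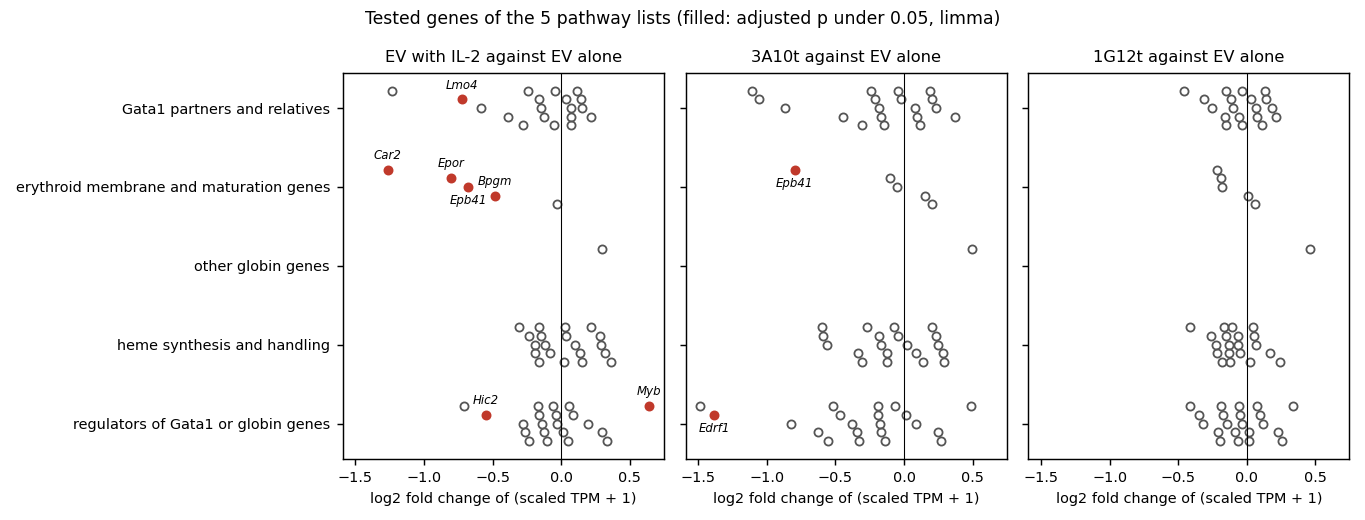
Log2 fold changes of (scaled TPM + 1) for the 66 tested genes of the 5 lists in 3 comparisons against EV alone, with 1 point per gene, spread vertically within a list for legibility, and filled, named points for an adjusted p under 0.05 (limma). In EV with IL-2, 4 of the 5 erythroid genes lie to the left and are filled, and no point is filled in 1G12t.

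With the 3A10 tether, 2 of the 66 genes were called against EV alone, both lower, which is 3.03% against 2.05% of all tested genes, and 24 had an unadjusted p under 0.05. The list median was -0.15 beside 0.03 over all genes. Edrf1, named for its role in erythroid differentiation, fell from 20.4 to 7.32 (log2 fold change -1.39, SE 0.148, adjusted p = 0.00322). Epb41 fell from 35.7 to 20.2 (-0.80, SE 0.121, adjusted p = 0.0185), a call kept in 10 of 15 alternatives with adjusted p from 0.000278 to 0.259. It was lost without replicate 2 or 3 of either group and when only the 6 libraries compared were fitted. The count was 1 without EV alone replicate 2, without EV alone replicate 3, without 3A10t replicate 2 or without 3A10t replicate 3, and 17 without 3A10t replicate 1. It was 5 with the replicate block, and 0 when only these 6 libraries entered the fit.

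With the 1G12 tether, 0 of the 66 genes were called against EV alone by limma, beside 0.0199% of all tested genes, and 4 had an unadjusted p under 0.05. The list median was -0.07, and -0.004 over all genes.

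Set directly against EV with IL-2, 3A10t cells differed in 14 of the 66 genes, 7 higher and 7 lower, which is 21.2% against 23.4% of all tested genes. The erythroid genes Car2 (3.31 against 0.847, log2 fold change 1.22, SE 0.142, adjusted p = 0.000254), Epor (2.16 against 0.547, adjusted p = 0.00847) and Bpgm (42.9 against 27.4, adjusted p = 0.00262) were higher in 3A10t, as was Lmo4 (39.0 against 21.3, adjusted p = 0.00239). The other genes higher in 3A10t were Ssbp2, a partner of LDB1, Zbtb7a, a repressor of fetal globin, and Hic2, with log2 fold changes from 0.37 to 0.56. Of the 20 tested heme genes, 4 were lower in 3A10t, among them Alas1 (41.7 against 63.4, adjusted p = 0.0205) and the transporters Abcb6 and Abcb10, with adjusted p of 0.037 and 0.0181. Edrf1 (7.32 against 16.6, adjusted p = 0.00061), Myb (1.96 against 4.14, adjusted p = 0.00737) and the histone chaperone gene Rbbp4 (139 against 171, adjusted p = 0.039) were lower as well, and Rbbp4 was not called with the replicate block. The 14 calls became 6 without EV with IL-2 replicate 1, 8 without EV with IL-2 replicate 2, 25 without 3A10t replicate 1, and 8 without either 3A10t replicate 2 or 3A10t replicate 3.

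Between the tethers, 6 of the 66 genes were called, 2 higher and 4 lower in 3A10t, which is 9.09% against 4.27% of all tested genes. Among the lower genes were Edrf1 (7.32 against 21.5, log2 fold change -1.46, SE 0.148, adjusted p = 0.00269), Epb41 (20.2 against 31.0, adjusted p = 0.0332) and Rcor1 (7.16 against 9.88, adjusted p = 0.0466), a corepressor scaffold. Hmox2 (126 against 91.7, adjusted p = 0.0462) and Zbtb7a (52.4 against 37.1, adjusted p = 0.0497) were higher. The call of Edrf1 held in 14 of 15 alternatives and was lost when only the 6 libraries compared were fitted. Of the 6 calls 1 was left without any one of the 1G12t libraries, without 3A10t replicate 2 or without 3A10t replicate 3, and without 3A10t replicate 1 there were 20.

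Markers of other cell types that express Gata1 or globin were read in each library, because a sorted population can hold other cells, and in bulk RNA a change in the number of cells of a type cannot be told from a change in RNA per cell. The sum of 8 red cell lineage genes was 2.55 to 2.71 in EV with IL-2, 1.69 to 2.18 in EV alone, 2.15 to 3.12 in 1G12t and 1.79 to 3.24 in 3A10t. Slc4a1, the band 3 anion exchanger of the red cell membrane, was at 0.0364 in EV with IL-2 against 0.42 in EV alone. Most of the red cell sum in EV with IL-2 came from Hemgn, picked out once its values were known. Hemgn was at 2.12, 2.25 and 1.54 in EV with IL-2, 0.275, 0.136 and 0.0929 in EV alone, 0.325, 0.325 and 0.348 in 1G12t, and 0.449, 0.293 and 0.676 in 3A10t. It was highest in EV with IL-2 without overlap. The libraries of both tethers lay above those of EV alone and overlapped each other.

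Markers of the other lineages that depend on GATA1 were summed in the same way. Megakaryocyte and platelet genes summed to 1.34 to 1.91 over 7 genes in EV with IL-2 and 3.36 to 4.30 in EV alone. Their sum was 4.73 to 6.61 in 1G12t and 3.72 to 7.01 in 3A10t, and Ppbp was at 0 in all 3 EV with IL-2 libraries. Eosinophil genes summed to 0.0604 to 0.443 in EV with IL-2 and 1.34 to 2.28 in EV alone, with Ear1 at 0 in all EV with IL-2 libraries. In 1G12t they summed to 2.61 to 3.78 and in 3A10t to 2.94 to 4.42. The 9 mast cell and basophil genes summed to 5.63 to 6.85 in EV with IL-2 and 4.40 to 7.11 in EV alone, most of it from Kit. Kit was not near the floor and was higher in EV with IL-2 (5.92, 5.09 and 5.36) than in EV alone (4.27, 2.87 and 3.24) without overlap. Its mean was 3.06 in 1G12t and 1.99 in 3A10t. The Fc receptor gene Fcer1a was listed at 0 in every EV alone and EV with IL-2 library. B cell genes summed to 8.34 to 16 over all libraries, with Cd79b the main part. Of the 5 myeloid genes, Cst3 was at 440 to 762 over all libraries, and the other 4 together reached 0.492 in EV with IL-2 and 3.04 elsewhere. In EV with IL-2, where alpha-globin was 23 to 36.5, the summed red cell list was below 3 and Slc4a1 was below 0.1 in each library. Slc4a1 is in the range where low genes were lower in EV with IL-2 in general. Whether other cells contributed globin mRNA was not tested.

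**Figure D4:**
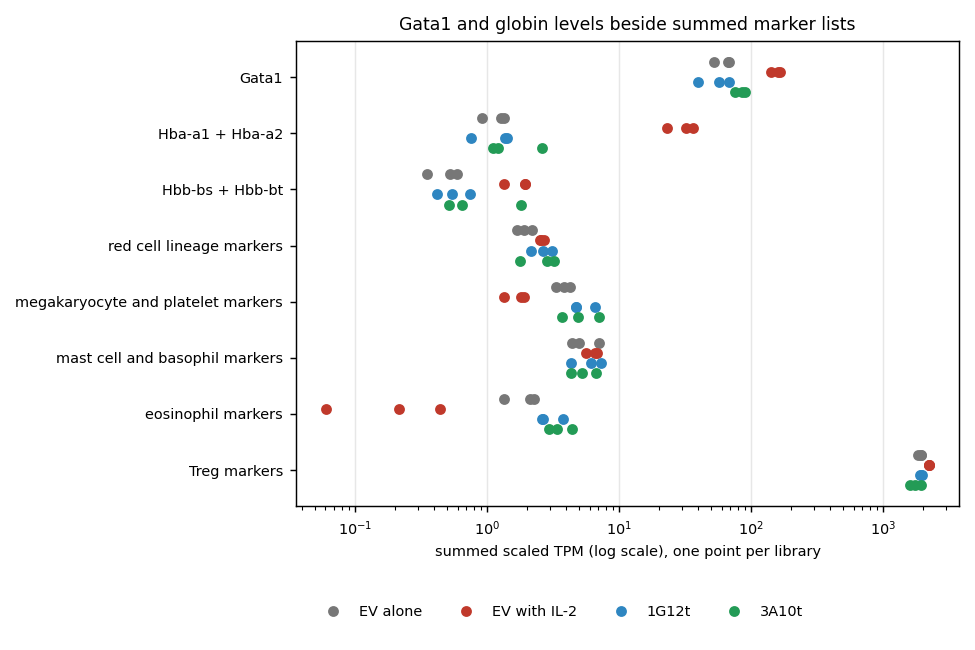
Summed scaled TPM (log scale) of Gata1, the alpha-globin pair, the beta-globin pair and marker lists, with 1 point per library coloured by group. The EV with IL-2 points stand apart to the right for alpha-globin and Gata1, while the red cell list stays between 1.69 and 3.24 in all libraries and the eosinophil and megakaryocyte lists are lowest in EV with IL-2.

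The genes whose levels followed Gata1 most closely were ranked by Pearson correlation over the 12 libraries among 10040 genes averaging 5 TPM or more. They were Cndp2 (r = 0.985), Myl10 (0.985), Tuba1b (0.983), Metrnl (0.983) and Stmn1 (0.979). Metrnl, for example, had means of 101, 41.2, 27.9 and 27.5 in EV with IL-2, 3A10t, EV alone and 1G12t. For the alpha-globin sum they were Gtse1 (0.994), Tmco3 (0.988), Top2a (0.987), Rrm2 (0.987) and Ada (0.986). Tmco3, for example, was at 178 in EV with IL-2, 45.7 in 3A10t, 45.3 in EV alone and 43.9 in 1G12t. These correlations describe 12 libraries in 4 groups that share a cell pool, and all 10 of these genes had their highest mean in EV with IL-2 and their second highest in 3A10t.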

How the data were processed

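RNA-seq was done on 12 libraries of sorted Tregs, 3 in each of 4 groups. Per the labels, full-length cDNA was made with oligo-dT, amplified and cut with transposase, which keeps no strand, and sequenced as 50-base paired reads. The submitters' processing notes name cutadapt 1.18, STAR 2.5.3, RSEM 1.3.0, DESeq2 1.26 and the mm10 (GRCm38) genome. The authors deposited TPM for 55228 gene symbols, which keep no depth, so no counting interval was made. TPM were scaled by median-of-ratios factors (0.854 to 1.09), a pseudocount of 1 was added, and the log2 values of 15043 genes (mean TPM 1 or more) were fitted with limma 3.58.1 (R 4.3.3; a mean per group, eBayes with trend, all 12 libraries) and adjusted by Benjamini-Hochberg over all of them. Folds of genes below the filter came from the same fit over all genes and were not tested. The fit was tested on simulated data. The 10 genes and all lists were chosen with earlier results of these data known. Named were these 10 genes, every list gene called, up to 5 genes of highest level per list, the marker lists, the 5 genes most like Gata1 and the alpha-globin sum, and neighbours within 100 kb. A few further list genes (Gata2, Gata3, Tcf3) and Hemgn were named after their values were seen. Gene positions come from GENCODE M21 (GRCm38) and promoters from RefSeq (GRCm38.p6), which held windows for 9 of the 10 genes. Protein sequences were planned and not used here. Values of a few list genes are not reported here. The study's own rule, other pseudocounts, filters and scalings, a fit of the 6 libraries compared, a replicate block, eBayes without a trend and leaving out each library were alternatives. Replicate numbers mark a shared sort and culture per the labels, and so pair the libraries. Deviations from group means correlated between same-numbered libraries at a mean of 0.041 over 18 pairs (-0.11 to 0.15, 3 over 0.1).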

Additional observations from a re-analysis of the deposited data

How the results depend on the processing

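Of 660 values of the 10 genes under the alternatives, 608 moved by less than the replicate spread and 48 by more. In all, 43 changed sign, 39 of them between groups that overlapped. The other 4 did so under quantile normalization, Tal1 to 0.10 in EV with IL-2 and -0.027 in 3A10t against EV alone and to -0.13 in 3A10t against EV with IL-2, and Alas2 to -0.14 in 3A10t against EV with IL-2. Gata1 kept its direction in EV with IL-2 (1.20 to 1.38) and 3A10t (0.28 to 0.50) against EV alone under all 14 alternatives each. The count of listed genes called in EV with IL-2 against EV alone (7) was 3 over a mean TPM of 5, 4 with quantile normalization and 12 with only the 6 libraries compared, and 3 to 5 when a replicate was left out. In 3A10t against EV alone (2) it was 9 by the study's rule (log2 fold change beyond 0.25 at an unadjusted p under 0.01), 4 over a mean TPM of 5, 4 with TPM as deposited, 0 with only the 6 libraries and 5 with the replicate block, and 1 to 17 when a replicate was left out. In 3A10t against EV with IL-2 (14) it was 39 with no filter, 9 over a mean TPM of 5, 8 with only the 6 libraries, and 6 to 25 when a replicate was left out. In 3A10t against 1G12t (6) it was 1 with no filter, 0 with only the 6 libraries, 3 with eBayes without a trend, and 1 to 20 when a replicate was left out. In 1G12t against EV alone it was 0 under every alternative run. In the order of this paragraph, the replicate block gave 6, 5, 15, 8 and 0 calls in the 5 comparisons. Over all genes, scaling moved the median log2 fold change from -0.09 (as deposited) to 0.03 in 3A10t against EV alone, and from -0.18 to -0.02 in 3A10t against 1G12t. The causes were not tested, apart from the smaller number of genes or libraries where a filter or a fit leaves them out. Depth is unknown, so the counting error of levels under about 1 TPM could not be computed.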
